A study of Mus musculus with 4 samples.

Results

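The peroxisome proliferator-activated receptors (PPARs) and the retinoid X receptors (RXRs) of the mouse were followed through the chromatin accessibility of inguinal white adipose tissue (iWAT). Their 6 genes were chosen by name: Ppara, Ppard and Pparg for the PPARs, and Rxra, Rxrb and Rxrg for the RXRs. For each gene, the deposited peaks that lie on the gene body or within 2000 bases upstream were summed, which gave 98 of the 189598 peaks, and 6 of the 17196 protein-coding genes with such a peak. The mice were male C57BL/6 animals of 8 weeks, kept at room temperature (RT, 22 °C) before the intervention. The groups were untreated mice (day0RT), mice held at 6.5 °C for 1, 3 or 7 days (day1C, day3C, day7C), and mice given CL-316,243 (CL, 1 mg/kg), an agonist of the β3-adrenergic receptor, for 1, 3 or 7 days (day1CL, day3CL, day7CL), with 3 mice in each. The labels name no transgene or deletion, and nuclei came from whole tissue, so a nucleus was assigned to a cell type only through the 12 clusters that the study annotated. Single-nucleus ATAC-seq (snATAC-seq) reads open chromatin, not transcripts, and every value below is accessibility.

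PPARs are nuclear receptors that bind fatty acids and their derivatives, and they bind DNA as heterodimers with an RXR. The pair recognises a direct repeat of the hexamer AGGTCA with 1 base between the copies, called DR1. PPARγ is the master regulator of fat cell differentiation and is made from alternative starts, of which the downstream one gives the adipose isoform PPARγ2. PPARα drives genes of fatty acid oxidation in liver, muscle and brown fat, and PPARδ acts broadly in oxidative tissues. RXRs respond to 9-cis retinoic acid and also pair with receptors for retinoic acid, vitamin D, thyroid hormone, bile acids and oxysterols.

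Between 1111 and 2021 nuclei and between 1340376 and 6916698 counts were available per mouse, where a count is a nucleus with a read in a peak. Libraries are the sums over the nuclei of 1 mouse in 1 cluster, used where at least 10 nuclei were present. Adipocyte nuclei, white and beige together, numbered 29 to 933 per mouse, and day1CL mice 1 and 2 were the shallowest with 29 and 68. A barcode sequence that also occurs in another mouse was carried by 26.8% of nuclei, and same-barcode pairs overlapped in open peaks about as much (median Jaccard index 0.0145) as pairs shifted by 1 place in the list (0.0138). The cluster annotated as vascular smooth muscle cells (VSMC) did not match its name: its skeletal muscle markers summed to 2650 CPM (counts scaled to 1000000 per library), with 9 of 10 markers having a peak, against 162 CPM for smooth muscle and pericyte markers. It is therefore called the cluster annotated as VSMC, and 10 mice had enough nuclei of it. APC1 and APC2 are the 2 clusters annotated as adipocyte progenitor cells, and both names are used here as labels only. Progenitor markers summed to 994 CPM in APC1 but to 237 in APC2, below the 442 of white adipocytes. The smooth muscle and pericyte markers summed to 786 CPM in APC2. VECs are vascular endothelial cells.

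Pparg, on chromosome 6 (chr6:115360951-115490399, mm10, plus strand, ENSMUSG00000000440), was most accessible in the adipocyte clusters. Its level, in CPM over the counts on all genes, was 608 ± 83.9 (SD, n = 19 mice) in beige adipocytes and 584 ± 74.3 (n = 21) in white adipocytes. VECs followed with 333 ± 188 (n = 15), then APC1 with 201 ± 85.2 (n = 20), macrophages with 134 ± 73.9 (n = 21) and APC2 with 131 ± 60.7 (n = 19). Beige and white adipocytes did not differ beyond their spread, whereas white adipocytes stood above VECs within 14 of 15 mice (mean difference 270 CPM, SD 197). Lymphocytes closed the order, with 14.5 CPM in CD4 T cells, 9.36 in CD8 T cells and 8.62 in B cells.

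Ppara (chr15:85734983-85802819, plus strand, ENSMUSG00000022383) was highest in beige adipocytes. Its level was 234 ± 65.2 CPM (n = 19) in beige adipocytes, 120 ± 19.9 (n = 21) in white adipocytes and 107 ± 65.9 (n = 10) in the cluster annotated as VSMC. Within mice, beige adipocytes lay above white adipocytes in 18 of 19 (mean difference 111 CPM, SD 62.4), and white adipocytes and the cluster annotated as VSMC were not separated. The remaining clusters ran from 58.1 CPM in APC1 to 6.74 in dendritic cells, and no neighbours among them differed beyond their spread. Ppard (chr17:28232700-28301474, plus strand, ENSMUSG00000002250) was highest in the cluster annotated as VSMC, at 405 ± 159 CPM (n = 10), above APC2 at 246 ± 74.5 (n = 19) in 8 of 8 mice with both. Below these no neighbours in the order differed beyond their spread. The Ppard level fell to 179 CPM in beige adipocytes, 171 in white adipocytes and 89.0 in B cells, the lowest.

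Rxra (chr2:27676440-27762957, plus strand, ENSMUSG00000015846), the RXR known as the main partner in fat and liver, was lowest in B cells. It reached 493 ± 104 CPM (n = 10) in the cluster annotated as VSMC, 353 ± 96.0 (n = 21) in macrophages, 327 ± 43.2 (n = 21) in white adipocytes and 279 ± 48.6 (n = 19) in beige adipocytes. T cells at 153 CPM, dendritic cells at 123 and CD8 T cells at 113 were not separated as neighbours. CD8 T cells lay above CD4 T cells at 75.1 in 18 of 20 mice, and CD4 T cells lay above B cells at 18.9 in 20 of 20. Rxrb (chr17:34031812-34038399, plus strand, ENSMUSG00000039656), which is expressed in most tissues, ran from 103 CPM in B cells to 53.9 in APC2. None of its neighbours in the order differed beyond their spread, and the ends of the order were not compared. Its 80.2 to 99.4% share of counts at the start-site peak (chr17:34031247-34032581) belongs also to Slc39a7, which shares that peak. Rxrg (chr1:167598384-167639623, plus strand, ENSMUSG00000015843), the RXR of skeletal muscle and heart, had its highest levels in the cluster annotated as VSMC (79.2 ± 60.7 CPM, n = 10), beige adipocytes (64.7 ± 15.2, n = 19) and white adipocytes (59.3, n = 21), which were not separated. In lymphocytes it lay between 1.04 and 3.76 CPM.

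**Figure D1:**
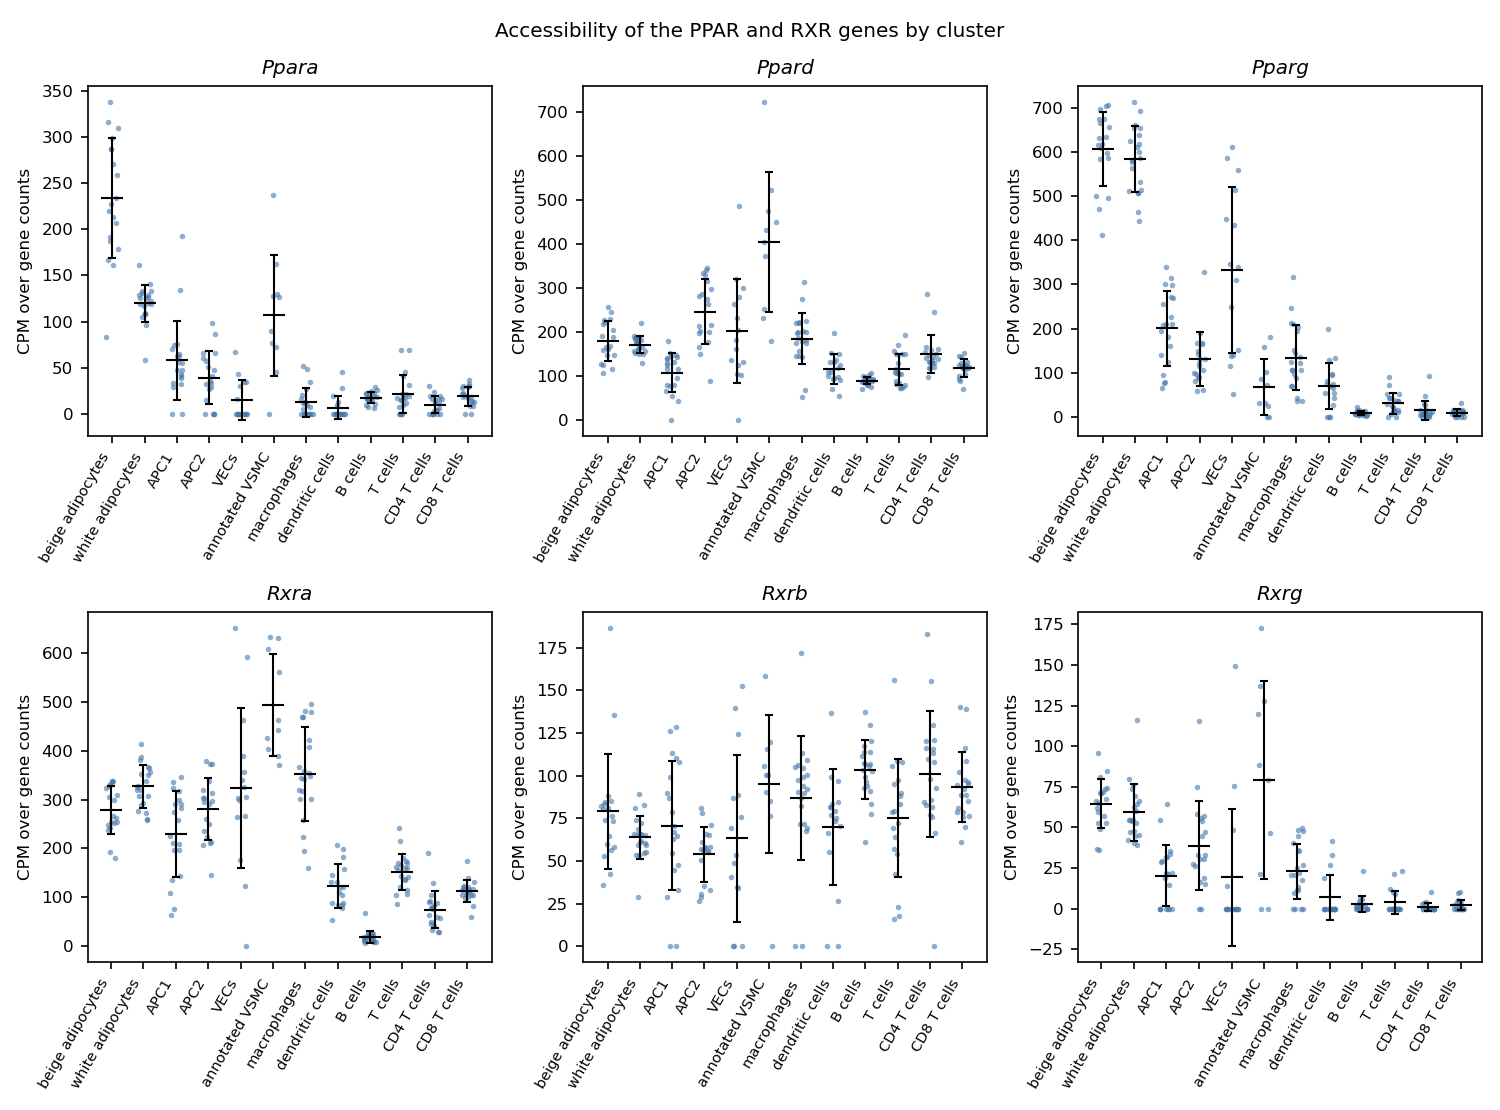
Accessibility of the 6 receptor genes in 12 clusters. Each panel is 1 gene, the x axis lists the clusters, the y axis gives CPM over gene counts, each point is 1 mouse, and bars show mean ± SD. Pparg is highest in both adipocyte clusters (608 and 584 CPM) and Ppara in beige adipocytes (234 CPM).

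Because the genes differ in peak length, levels were compared between genes only per kilobase of peak. In beige adipocytes the mean was 47.1 CPM per kb for Rxrb, 43.4 for Ppara, 38.3 for Pparg, 26.6 for Rxrg, 17.6 for Rxra and 16.5 for Ppard. Most of the peak length of Rxrb lies at a start site, where accessibility is usually strongest. The share of counts at start-site peaks was in contrast 20.4% for Pparg in beige adipocytes and 20.8% in white adipocytes, so most Pparg accessibility lay inside the gene, where 27 of its 30 peaks are intronic. For Ppara the shares were 47.9 and 53.3%, and for Rxra 11.8 and 10.6%.

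The Pparg starts separated the cell types. RefSeq places 3 starts, of which the first and second share a peak (chr6:115360841-115362593) and the PPARγ2 start has its own (chr6:115421642-115422292). As peak CPM over all peak counts, the upstream peak measured 56.5 ± 18.5 in beige adipocytes, 51.8 ± 9.37 in white adipocytes, 68.2 ± 70.1 in VECs, 26.3 ± 19.9 in macrophages and 23.4 ± 20.98 in APC1. The PPARγ2 peak measured 42.3 ± 19.6 in beige and 44.1 ± 10.9 in white adipocytes, but 5.85 ± 12.8 in macrophages, 4.51 ± 12.3 in VECs and 4.38 ± 9.19 in APC1. The PPARγ2 start was thus open in fat cells and at 5.85 CPM or less in every other cluster, VECs included. Since clusters were formed from these same counts, this is a description without a test. The promoters of the upstream and the PPARγ2 start, from 250 bases before to 50 bases after the start (RefSeq, GRCm38.p6, plus strand), are printed because they are the ends of this contrast, with AGGTCA copies on either strand in capitals.
Pparg upstream start, chr6:115360894-115361193: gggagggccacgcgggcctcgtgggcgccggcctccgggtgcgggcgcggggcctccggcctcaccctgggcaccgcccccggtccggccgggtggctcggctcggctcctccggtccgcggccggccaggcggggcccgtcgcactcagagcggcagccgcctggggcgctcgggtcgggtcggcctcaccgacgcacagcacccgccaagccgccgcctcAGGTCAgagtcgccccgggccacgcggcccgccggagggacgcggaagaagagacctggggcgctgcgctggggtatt
Pparg downstream start, chr6:115421816-115422115: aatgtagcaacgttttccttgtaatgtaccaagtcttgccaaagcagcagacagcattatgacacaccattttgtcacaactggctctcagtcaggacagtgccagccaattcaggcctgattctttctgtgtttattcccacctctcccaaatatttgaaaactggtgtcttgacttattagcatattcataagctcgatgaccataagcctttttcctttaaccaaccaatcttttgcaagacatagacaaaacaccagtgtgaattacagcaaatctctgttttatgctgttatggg
The upstream promoter is rich in G and C and holds 1 AGGTCA copy, and the PPARγ2 promoter holds none in this window.

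**Figure D2:**
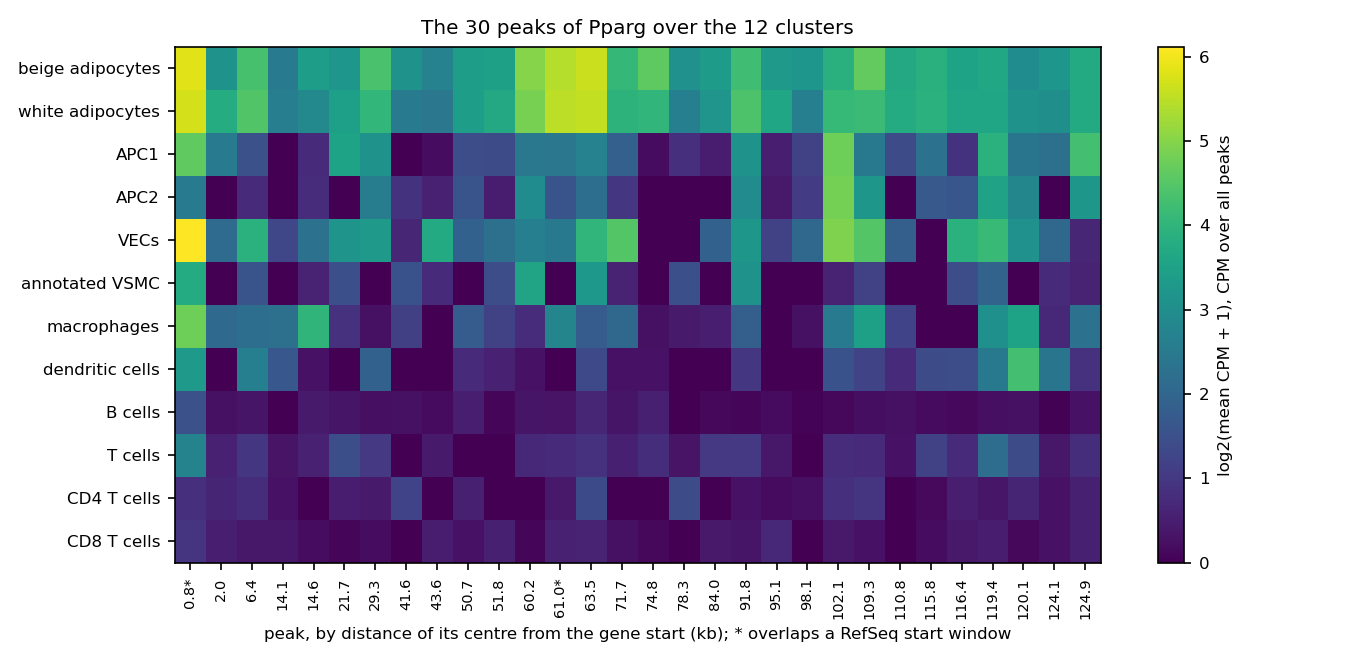
The 30 Pparg peaks in 12 clusters. The x axis gives the distance of each peak's centre from the gene start in kb, each line of the heatmap is a cluster, and the colour is log2(mean peak CPM + 1) over mice, with an asterisk at peaks that overlap a RefSeq start. The upstream start is open in adipocytes, VECs, macrophages and APC1, and the PPARγ2 start in beige (42.3 CPM) and white (44.1 CPM) adipocytes.

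Rxrg was open mainly at 1 of its starts. The peak at its second RefSeq start (chr1:167617913-167618929) was the more open, at 32.4 ± 12.9 CPM for beige and 29.5 CPM for white adipocytes, and 6.26 and 4.15 CPM were found at the first (chr1:167598223-167598786). The second RefSeq start of Rxra overlaps no deposited peak. Only 1 start is given for Ppara and for Ppard, and each has a peak.

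Beige and white adipocytes of the same mouse were compared in 19 mice that had both, to ask which receptors differ between the thermogenic and the storing fat cell. Of 13457 genes tested, 28.4% passed the threshold (edgeR quasi-likelihood test with the mouse as a block, Benjamini-Hochberg adjusted p under 0.05), 13.1% higher and 15.3% lower in beige. Both clusters were formed by the study from these counts, so the calls describe the clusters and are read beside those shares. Of the 6 receptors, Ppara was higher and Rxra lower.

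In beige adipocytes Ppara ran from 83.0 CPM through a median of 227 to 338, and in white adipocytes from 96.7 through 122 to 161. The beige value was higher in 18 of 19 mice, and 17 of the 19 beige values lay above every white one. The log2 fold change was 0.80 (SE 0.075, edgeR adjusted p = 8.46348e-18). Ppara is the receptor that turns on fatty acid oxidation, and its call held in every alternative run, with the smallest difference when only peaks near the start were counted (0.58).

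Rxra went the other way by a smaller step. It ran from 181 CPM through 267 to 338 in beige and from 258 through 328 to 415 in white adipocytes, and was lower in beige in 16 of 19 mice. The ranges overlapped, with 8 beige values below every white one, and the log2 fold change was -0.31 (SE 0.064, edgeR adjusted p = 3.12498e-05). Counted at start peaks only, Rxra differed by -0.34 and did not pass (edgeR adjusted p = 0.0817).

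Pparg, the adipocyte regulator, ran from 413 CPM through 618 to 708 in beige and from 445 through 601 to 715 in white adipocytes. Its groups overlapped nearly completely, and the log2 difference was 0.01 (SE 0.053, edgeR adjusted p = 0.955). Ppard gave -0.03 (adjusted p = 0.845, edgeR), Rxrb 0.23 (adjusted p = 0.0816) and Rxrg 0.23 (adjusted p = 0.107). Without day1CL mouse 3, Rxrb (0.28, adjusted p = 0.0291) and Rxrg (0.28, adjusted p = 0.0462) also passed, and without day3C mouse 3 Rxrb passed (0.26, adjusted p = 0.0497). Beige markers summed to 687 CPM in the beige and 262 CPM in the white cluster, and adipocyte markers to 1586 and 1750 CPM.

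**Figure D3:**
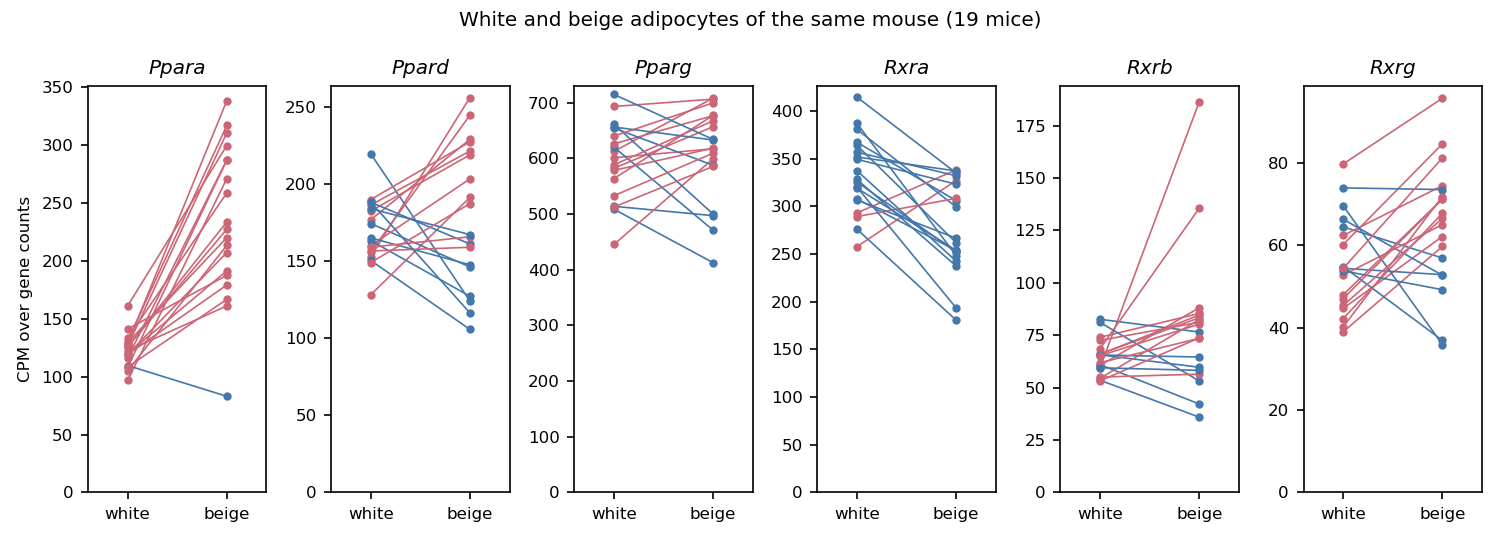
The 6 receptor genes in white and beige adipocytes of the same mouse. Each line joins the 2 libraries of 1 of 19 mice, the y axis gives CPM over gene counts, and red lines mark mice higher and blue lines mice lower in beige. Ppara lines rise in 18 of 19 mice and Rxra lines fall in 16.

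Single peaks showed where these differences lie. Of 34063 peaks tested, 28.6% were called, 11.2% higher and 17.5% lower in beige, and the median over all tested peaks was -0.10 on the log2 scale. Of the 98 receptor peaks, 43 passed the filter on low counts, of which 5 were higher and 5 lower. Ppara had 4 of 6 tested peaks higher and none lower, Pparg 1 higher and 2 lower of 20, Rxra 3 lower of 11, and the 6 tested peaks of Ppard, Rxrb and Rxrg gave no call.

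The Ppara start peak (chr15:85734382-85736486) measured 89.5 ± 27.7 CPM in beige and 50.6 ± 6.87 in white adipocytes and was higher in 18 of 19 mice (log2 fold change 0.47, SE 0.091, edgeR adjusted p = 8.24089e-06). An intronic peak (chr15:85771219-85771991) measured 29.7 ± 14.9 against 12.5 ± 3.21 CPM and was higher in 17 (1.03, SE 0.17, edgeR adjusted p = 2.22307e-08). A further intronic peak (chr15:85774253-85774533) was low in white adipocytes, at 2.87 ± 1.92 CPM, and measured 11.9 ± 12.1 in beige (1.49, SE 0.35, edgeR adjusted p = 0.000196, higher in 16). The calls at the start peak and at chr15:85771219-85771991 held with each mouse left out. The call at chr15:85774253-85774533 held in the 18 of 21 such fits in which that peak was tested. A weaker call, in an intron at chr15:85759328-85759669, rested on 11.2 ± 9.93 against 5.60 ± 1.53 CPM, higher in 13 of 19 mice (0.75, SE 0.30, edgeR adjusted p = 0.0460), and it was lost when any 1 of 8 mice was left out. The Ppara difference was therefore spread over its start and introns.

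The Rxra peaks lower in beige were all intronic. The largest difference was at chr2:27750076-27751191, with 6.57 ± 5.67 CPM in beige and 15.5 ± 5.57 in white adipocytes, lower in 17 of 19 mice (-1.45, SE 0.26, edgeR adjusted p = 5.41227e-07). The peak at chr2:27758178-27759148 measured 18.1 ± 9.51 against 25.8 ± 6.48 CPM and was lower in 16 (-0.59, SE 0.17, adjusted p = 0.00266, edgeR). The call at chr2:27758178-27759148 held with each mouse left out, and that at chr2:27750076-27751191 in the 20 of 21 such fits that tested it. The call at chr2:27687013-27687500 (6.20 against 13.2 CPM, -0.68, edgeR adjusted p = 0.0245) was lost without any 1 of 7 mice. For orientation, 300 bases about the centre of the most changed Rxra peak (RefSeq, GRCm38.p6, plus strand) read as follows.
Rxra intron peak, chr2:27750483-27750782: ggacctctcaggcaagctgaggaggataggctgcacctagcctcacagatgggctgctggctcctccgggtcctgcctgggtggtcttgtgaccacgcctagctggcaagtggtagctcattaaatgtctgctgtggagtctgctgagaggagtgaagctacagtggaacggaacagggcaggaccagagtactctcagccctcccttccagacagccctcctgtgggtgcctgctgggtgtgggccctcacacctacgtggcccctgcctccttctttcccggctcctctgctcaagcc
No AGGTCA copy stands in these letters.

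At Pparg the peaks split. An intronic peak (chr6:115435493-115435992) was higher in beige, at 23.2 ± 13.2 against 14.0 ± 4.22 CPM, in 15 of 19 mice (0.45, edgeR adjusted p = 0.0363). This call was lost with no filter on low counts (0.26, edgeR adjusted p = 0.364), in nuclei of over 2000 counts (0.36, adjusted p = 0.156), without day1C mouse 1, day7C mouse 2 or day7CL mouse 1, and without group day1C, day3C or day7C. The PPARγ2 start peak was called lower (-0.34, edgeR adjusted p = 0.0191), although its means over mice were 42.3 and 42.1 CPM and 9 of 19 mice were lower, and an intronic peak (chr6:115452460-115453110) was called lower at 17.9 against 21.5 CPM (-0.44, adjusted p = 0.0383, edgeR). Both of these low calls were lost with other scaling factors and with DESeq2, and the peak of the first and second starts did not differ (-0.05, edgeR adjusted p = 0.754). Of the 20 tested Pparg peaks 4 had a fold change above 0, where the median over all tested peaks was -0.10. Over the gene as a whole, in a separate fit of genes, the log2 difference was 0.01. Of 43 receptor peaks tested 10 were called. Without day1CL mouse 3 it was 5, but only 21 passed the filter on low counts. Without day3C mouse 1 it was 6 of 43, and without day7C mouse 2 it was 6 of 41.

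**Figure D4:**
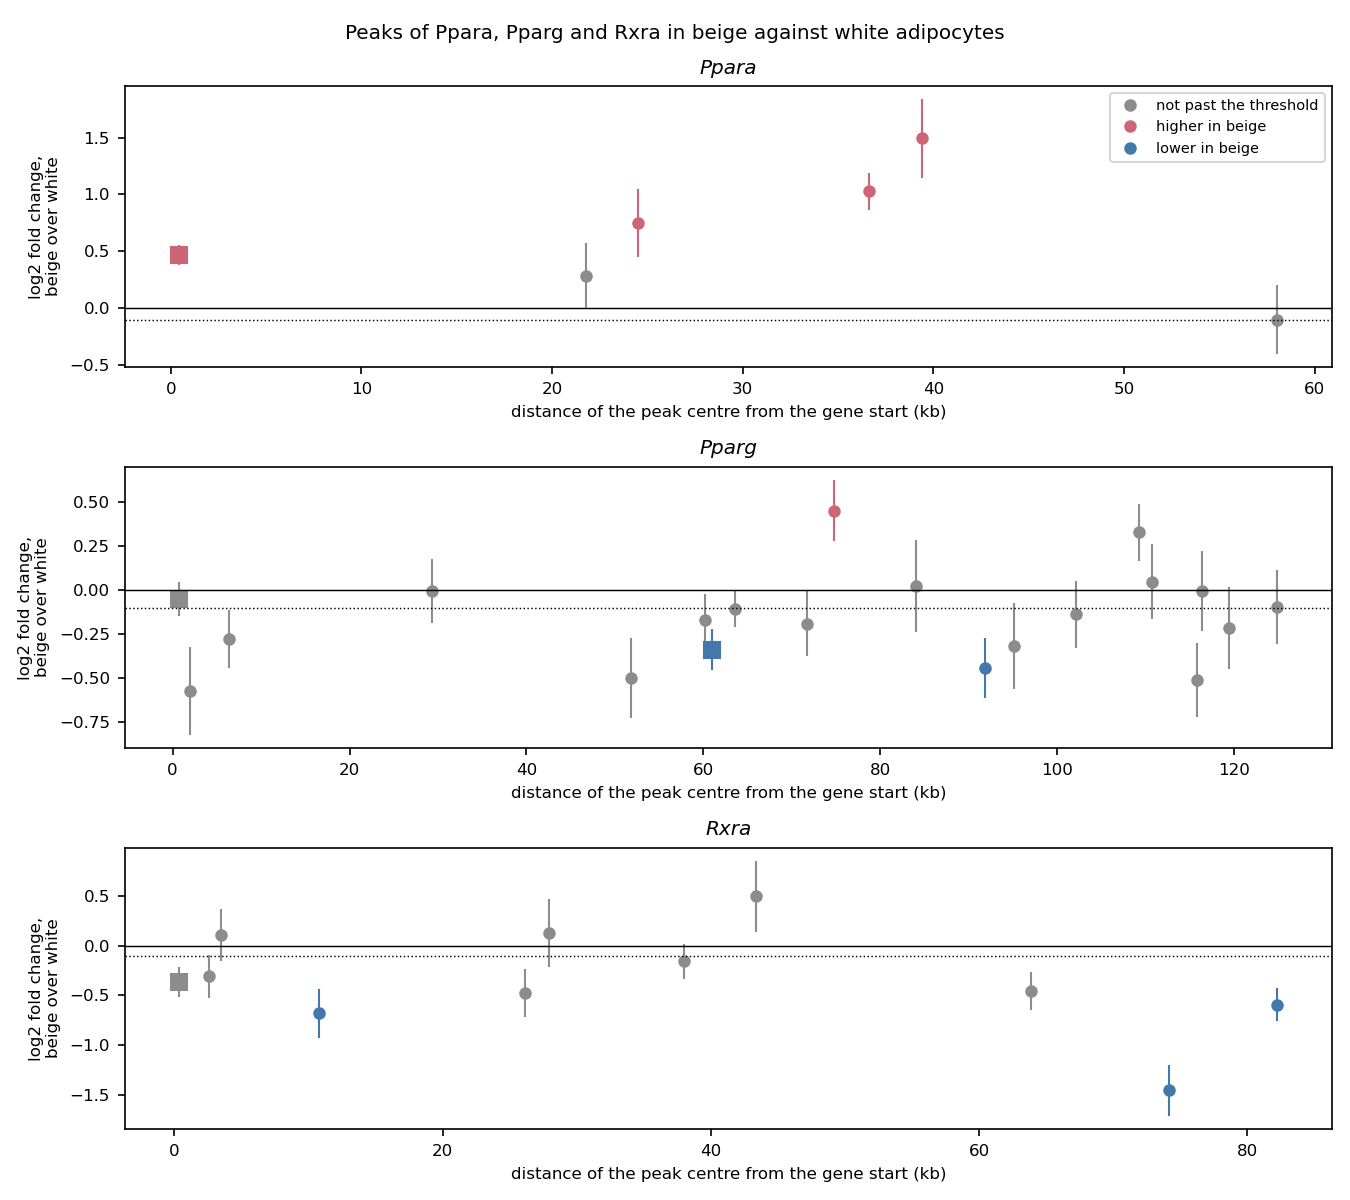
Beige against white adipocytes at single peaks of Ppara, Pparg and Rxra. The x axis gives the distance of a peak's centre from the gene start in kb and the y axis the log2 fold change ± SE, squares mark start-site peaks, the dotted line is the median of all tested peaks (-0.10), and red and blue mark peaks called higher and lower. Ppara has 4 peaks called higher, and Rxra 3 called lower.

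To ask whether cold or CL changed the receptors in fat cells, white and beige adipocyte nuclei of each mouse were summed and each treated group was compared with day0RT in 1 fit over the 21 mice. All 6 contrasts share the same 3 untreated mice and are therefore not independent. These mice were collected before any intervention, and the groups hold no vehicle-injected mice and no untreated mice of later days. Time and handling therefore cannot be told apart from the treatments. The share of 14429 tested genes called was 0.34% in day1C, 1.68% in day3C, 5.08% in day7C, 2.61% in day1CL, 4.77% in day3CL and 7.81% in day7CL. Among the 36 tests of receptor genes, 3 passed, and all were of Pparg, higher in day3C, day3CL and day7CL, where 0.894, 3.08 and 4.64% of genes were called higher (day1C 0.104%, day7C 2.97%, day1CL 1.15%).

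Pparg measured 495, 513 and 455 CPM in the adipocytes of the untreated mice. Under cold it was 575, 625 and 602 at day 1, 633, 645 and 644 at day 3, and 540, 604 and 658 at day 7. Under CL it was 389, 528 and 590 at day 1, 695, 595 and 537 at day 3, and 652, 702 and 588 at day 7. In every treated group except day1CL, all 3 mice lay above all 3 untreated mice. In day1CL 2 of 3 did, and the mouse below them was mouse 1, with 29 adipocyte nuclei. Such a gap upwards was found for 7.11% of genes in day1C, 9.83% in day3C, 12.3% in day7C, 10.7% in day3CL and 11.7% in day7CL.

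The log2 fold changes of Pparg were 0.31 (SE 0.11, edgeR adjusted p = 0.216) in day1C, 0.40 (SE 0.10, adjusted p = 0.0187) in day3C and 0.32 (SE 0.10, adjusted p = 0.0512) in day7C. The day7C value passed with RLE scaling factors (edgeR adjusted p = 0.0489), with libraries of at least 30 nuclei (adjusted p = 0.0400, edgeR), with only the 2 groups compared in the fit (edgeR adjusted p = 0.0410), and without day1CL mouse 1, day3CL mouse 1 or day7C mouse 1. Under CL they were 0.19 (SE 0.12, edgeR adjusted p = 0.467), 0.33 (SE 0.10, adjusted p = 0.0426) and 0.44 (SE 0.10, adjusted p = 0.00250) at days 1, 3 and 7. The group means rose from 488 ± 29.4 CPM in day0RT to 641 ± 6.68 in day3C, 609 ± 79.9 in day3CL and 647 ± 57.0 in day7CL (n = 3 each). The calls leaned on the untreated mice. Without day0RT mouse 3, the lowest, none passed (edgeR adjusted p = 0.183 in day3C, 0.258 in day3CL and 0.0537 in day7CL), and without day0RT mouse 1 only day7CL did (0.45, edgeR adjusted p = 0.0109). The day3C call was also lost without day3C mouse 1 (edgeR adjusted p = 0.0725). The day3CL call was lost in 9 of the 21 fits that leave out 1 mouse, with the smallest fold change, 0.24, without day3CL mouse 1 (edgeR adjusted p = 0.177), and in DESeq2 (adjusted p = 0.0881). Counted at peaks near the starts only, Pparg differed by 0.35, 0.22 and 0.13 in these 3 groups and no test passed.

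White nuclei alone gave values of the same size, with 0.42 in day3C (edgeR adjusted p = 0.0194) and 0.45 in day7CL (adjusted p = 0.00421) past the threshold and 0.31 in day3CL (adjusted p = 0.0814) not, where 0.2, 1.11 and 1.87% of 13508 genes were called at days 1, 3 and 7 of cold and 1.93, 4.37 and 6.74% at those of CL. The beige share of adipocyte nuclei ran from 7.69 to 12.2% in day0RT and from 26.1 to 32.5% in day7C. The 7 adipocyte markers summed to 1982 CPM in day0RT, 2162 in day1C, 1554 in day3C, 1498 in day7C, 1622 in day1CL, 1596 in day3CL and 1572 in day7CL, so the 3 groups with a Pparg call had a lower sum than day0RT. Macrophage markers summed to 183 to 233 CPM over the groups, B cell markers to 96.7 to 158 and endothelial markers to 124 to 158. Smooth muscle and pericyte markers summed to 231 CPM in day0RT, 289 in day3CL and 269 in day7CL, beige markers to 246 in day0RT and to 297, 370 and 376 in day3C, day3CL and day7CL, and progenitor markers to 465 in day0RT and to 435, 487 and 492 in those groups. The part of these marker genes in the result was not tested. Adipocyte gene counts per mouse were 284740 to 865503 from 156 to 285 nuclei in day0RT. They were 657109 to 3354348 from 209 to 709 nuclei in day3C, 457340 to 2912612 from 205 to 933 in day3CL, and 656612 to 2979896 from 317 to 484 in day7CL. Counts per nucleus were on average higher in these 3 groups, and in day7C, than in day0RT. The part of this depth in the Pparg calls was not tested. In the white fit 1 call was found in place of 2 without day0RT mouse 1, any 1 of the day3C mice or day7CL mouse 1, and 0 without day0RT mouse 3.

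The other receptors gave no call against day0RT. Ppara measured 121, 137 and 143 CPM in untreated mice and 146, 149 and 195 in day7CL, where all 3 mice lay above the untreated ones (0.23, SE 0.13, edgeR adjusted p = 0.303), a gap shared by 11.7% of genes. In white nuclei alone 2 of 3 day7CL mice lay above (0.17, edgeR adjusted p = 0.590). The part of the beige share of nuclei in the summed value was not tested. Ppard measured 168, 214 and 180 CPM in untreated mice and 150, 157 and 161 in day7C, where all 3 lay below (-0.23, SE 0.13, edgeR adjusted p = 0.328), a gap shared by 11.3% of genes. Rxra lay between -0.20 and 0.11 over the 6 contrasts, Rxrb between -0.18 and 0.10, and Rxrg between -0.10 and 0.22. Rxrg stood above the untreated mice in all 3 day1CL mice (0.22, edgeR adjusted p = 0.679), of which 2 are the shallowest libraries, a gap shared by 8.16% of genes.

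**Figure D5:**
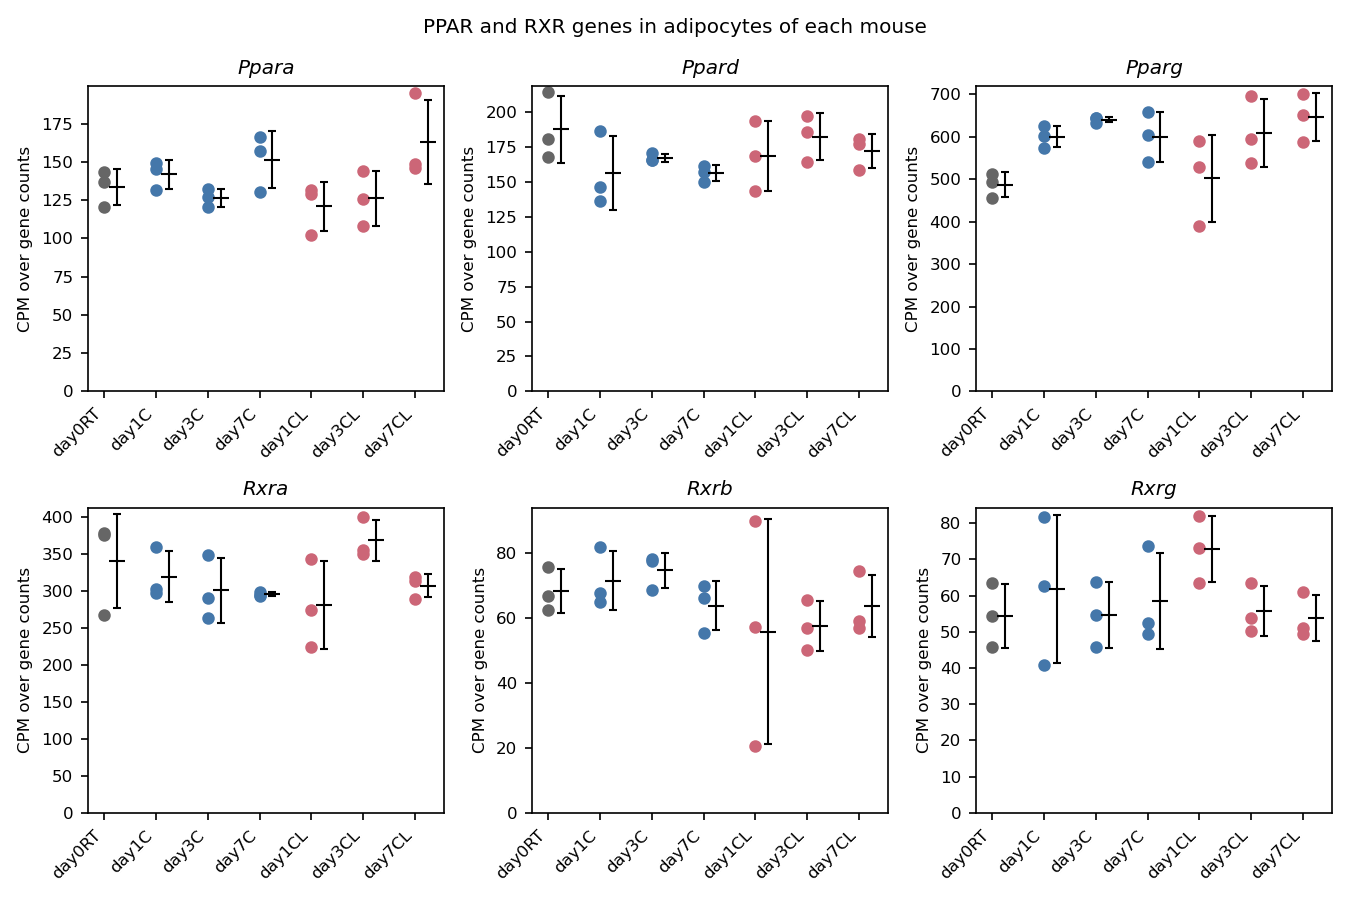
The 6 receptor genes in adipocytes by group. The y axis gives CPM over gene counts, each point is 1 mouse, and bars show mean ± SD of 3 mice per group. Pparg lies above the untreated mice (455 to 513 CPM) in all mice of each treated group except day1CL.

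Single peaks were tested in the same way. Of 47835 peaks tested, 0.213, 1.28 and 3.13% were called at days 1, 3 and 7 of cold and 2.06, 3.46 and 4.19% at days 1, 3 and 7 of CL. Of 53 receptor peaks tested, 27 belong to Pparg, and 21 to 24 of these had a fold change above 0 in each contrast, with medians from 0.39 in day1CL to 0.71 in day7CL, where the median over all peaks lay between -0.04 and 0.01. These peaks share mice and hold the counts summed for the gene, so they are not replicates and give no separate support to its calls. The 3 intronic peaks called below passed the filter on low counts only through treated mice. The 2 start peaks of Pparg lay between -0.14 and 0.24 and gave no call. Over all 6 contrasts there were 6 calls of a receptor peak, 5 of them at 3 intronic Pparg peaks and 1 at Rxra.

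The intronic Pparg peak at chr6:115444766-115445109 was called in 3 contrasts. Its peak CPM were 1.66, 0 and 3.65 in untreated mice, from counts of 1, 0 and 4. They were 9.81, 7.22 and 10.5 in day3C, 13.9, 9.10 and 7.47 in day3CL, and 15.0, 13.7 and 8.29 in day7CL. The untreated counts lay under the minimum count of 10, so the peak passed the filter only through treated mice. The log2 fold changes in these groups were 1.96 (edgeR adjusted p = 0.0458), 1.89 (adjusted p = 0.0359) and 2.49 (adjusted p = 0.000945). Summed over mice, the ratio in day7CL was 5.67 with a counting interval (exact, 95%) of 2.33 to 17.9, which covers counting error only. The day3C call was lost without any 1 of 11 mice, and its fold change ran from 1.68 to 3.12 when leaving out each mouse. The day3CL call was lost without any 1 of 5 mice (1.61 to 3.04). Both were at their highest without day0RT mouse 3. Without day7CL mouse 1 the day7CL call was lost (2.23, edgeR adjusted p = 0.0641). The centre of this peak is printed because it is the only receptor peak called under both treatments (RefSeq, GRCm38.p6, plus strand).
Pparg intron peak, chr6:115444787-115445086: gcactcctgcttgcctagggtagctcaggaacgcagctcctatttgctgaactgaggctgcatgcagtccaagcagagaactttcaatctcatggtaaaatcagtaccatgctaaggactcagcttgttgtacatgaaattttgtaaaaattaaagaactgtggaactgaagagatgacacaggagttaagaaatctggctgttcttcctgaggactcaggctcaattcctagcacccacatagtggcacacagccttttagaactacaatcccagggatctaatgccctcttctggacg
It holds no AGGTCA copy, and 24.7% of the peak is masked as repeat in the RefSeq sequence, against a median of 9.90% over all peaks.

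In day7CL 2 more intronic Pparg peaks were called. The peak at chr6:115458916-115459138 measured 1.66, 0 and 0.913 CPM in untreated mice, from 2 counts in all, and 8.80, 9.68 and 8.29 in day7CL (ratio of summed counts 9.16, exact counting interval 2.41 to 77.6, edgeR adjusted p = 0.00522). Its untreated counts, like those of the next peak, lay under the minimum count of 10. Both peaks therefore passed the filter only through treated mice. With 1 mouse left out, the first of them was tested in only 10 of 21 fits, and was called in those. The peak at chr6:115477150-115477551 measured 8.31, 5.58 and 5.48 CPM in untreated mice and 17.1, 16.9 and 7.10 in day7CL, so the groups overlapped (1.33, edgeR adjusted p = 0.0286). The Rxra peak at chr2:27758178-27759148, which was also lower in beige adipocytes, measured 31.6, 39.1 and 34.7 CPM in untreated mice and 19.2, 15.3 and 21.3 in day7CL (-0.84, edgeR adjusted p = 0.0148). DESeq2 called none of these peaks. The count of 6 calls fell to 3 without day0RT mouse 1 or day3CL mouse 2, to 2 without day7CL mouse 1 and to 1 without day0RT mouse 3.

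Cold and CL were compared directly at the same day, without the untreated mice. Of 18 tests of receptor genes none passed with edgeR or DESeq2, where 0.922, 1.46 and 0.111% of genes were called at days 1, 3 and 7. An unadjusted p under 0.05 with edgeR was found in 2 of the 18. Of 14429 genes, 1843, 1741 and 1231 had such a p at days 1, 3 and 7, so the 2 are not read as a difference. Both receptor tests were at day 3: Rxra measured 349, 263 and 291 CPM under cold and 400, 351 and 355 under CL (log2 difference 0.25, 95% interval 0.05 to 0.45, edgeR adjusted p = 0.244). Rxrb measured 68.6, 77.6 and 78.2 CPM under cold and 50.3, 57.0 and 65.5 under CL (-0.26, 95% interval -0.50 to -0.01, edgeR adjusted p = 0.380). For Pparg the 95% intervals of CL over cold were -0.34 to 0.10 at day 1, -0.25 to 0.10 at day 3 and -0.06 to 0.30 at day 7, so a log2 difference of 0.40, as between day3C and day0RT, lay outside each of them on the higher side.

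Outside adipocytes no receptor gene passed the threshold where it could be tested. In the 7 clusters where a receptor gene passed the filter on low counts there were 126 tests against day0RT, of which 8 had an unadjusted p under 0.05 with edgeR and none an adjusted p under 0.05 with edgeR or DESeq2 (lowest 0.215 with edgeR), against 0.218% of all gene tests called over the clusters fitted, dendritic cells included. The receptors were not tested in dendritic cells, where none passed the filter, in VECs or in the cluster annotated as VSMC. Those 8 tests were in APC1, B cells and macrophages. In a contrast of these clusters, 74 to 109 of 1454, 746 to 1899 of 11502 and 134 to 300 of 3553 genes had such a p. Of the 8, 4 were Pparg in APC1, where its fold change was above 0 in all 6 groups, from 0.59 to 1.18. In day3CL, the group with the lowest p, Pparg in APC1 had a mean of 265 CPM, against 123 in day0RT (edgeR adjusted p = 0.367). The adipocyte markers summed in APC1 to 212 CPM in day0RT and to between 187 and 395 in the treated groups, and their part was not tested. In macrophages Pparg was above 0 in all 6 groups as well, from 0.40 to 1.06, and Rxra in B cells from 0.12 to 0.98. Below 0 in all 6 groups were Ppard in APC2, from -0.66 to -0.02, and Rxrb in CD8 T cells, from -0.32 to -0.10. The 6 contrasts of a cluster share its untreated libraries, so equal signs are not independent. No share of all genes is set beside them.

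The genes around the receptors were taken from lists of the pathway. Between beige and white adipocytes, PPARα targets of fatty acid oxidation were 15 higher and none lower of 21 tested, with a median log2 fold change of 0.50 where the median of all genes was -0.00024. Of all genes, 13.1% were called higher and 15.3% lower. The higher targets included Ucp1, the uncoupling protein (2.87, edgeR adjusted p = 2.44e-25), which also stands among the beige markers, and Fabp3, a fatty acid carrier of muscle and brown fat (1.74, edgeR adjusted p = 2.36e-22). The study described the beige cluster by thermogenic genes, Ucp1 among them, from these same counts. This list is therefore no separate support for the Ppara call. PPARγ targets of adipocytes were 4 higher and 9 lower of 25 (median -0.13), with Plin2, a lipid droplet coat protein (0.48), higher and the adipokine gene Retn (-1.18) and the desaturase gene Scd1 (-0.60) lower.

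Among 20 co-regulators 5 were higher and 4 lower in beige, where 13.1% of all genes were called higher and 15.3% lower. Ppargc1b (0.65) and Prdm16 (0.58), both coactivators of the thermogenic programme, were higher, and the corepressor gene Nrip1 (-0.61) and Tbl1x (-0.27), of the corepressor complex, were lower. Of 13 other RXR partners 4 were higher, among them the retinoic acid receptor gene Rarb (0.86), and 2 lower, Vdr (-1.23), the vitamin D receptor, and Rarg (-0.41). Of 7 tested genes of retinoid supply none was higher and 3 lower, including Aldh1a1 (-0.60), which makes retinoic acid, and Bco1 (-0.99), which cleaves β-carotene.

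Against day0RT, where Pparg had its calls, most PPARγ targets that passed were lower. Of 25 targets, 9 were lower in day3C, 12 in day7C, 5 in day1CL, 9 in day3CL and 12 in day7CL, and 3 were higher, all in day3CL, with Scd1 (0.77) and Dgat2 (0.38) among them. Of all genes, 0.783% were called lower in day3C, 2.11% in day7C, 1.46% in day1CL, 1.69% in day3CL and 3.17% in day7CL. In day1C, where 0.236% of genes were called lower, no target passed. Under cold 0.104, 0.894 and 2.97% of all genes were called higher at days 1, 3 and 7. Under CL these shares were 1.15, 3.08 and 4.64%. Adipoq, the adiponectin gene, was lower by -0.76 in day3C, -0.86 in day7C, -0.73 in day1CL, -0.77 in day3CL and -0.92 in day7CL, and Angptl4, an inhibitor of lipoprotein lipase, by -0.98, -1.09 and -0.96 in day3C, day7C and day7CL. The list shares Adipoq, Fabp4, Plin1, Cidec and Lipe with the adipocyte markers whose sum moved in the same groups. Of 24 tested PPARα targets 2 were higher in day7C, 1 was lower in day3CL and 1 higher in day7CL: Ucp1 (1.70) and Cpt1b (1.16), the muscle-type carnitine palmitoyltransferase, rose in day7C, Cpt1b (1.05) again in day7CL, and Acadl (-0.43), an acyl-CoA dehydrogenase, fell in day3CL. Of the 20 co-regulators 2, 3 and 4 were higher in day7C, day3CL and day7CL and none in the other groups. Among them were Tbl1xr1, of the corepressor complex (0.51, 0.54 and 0.73), and the histone methyltransferase gene Ehmt1 (0.53, 0.42 and 0.48). The corepressor gene Tle3 was the only one lower, in day3C (-0.45), day7C (-0.56), day1CL (-0.52) and day7CL (-0.38). Of the RXR partners, Rarb was higher in day7C (0.76), day3CL (0.45) and day7CL (0.60), Nr1h4, the bile acid receptor, higher in day1CL (1.09), and Rarg lower in day7C (-0.50) and day7CL (-0.62). Of the retinoid supply genes, Rdh10, a retinol dehydrogenase, was higher in day7C (1.18), day1CL (1.41) and day7CL (0.82), and Bco1 lower in day7C (-0.79) and day1CL (-0.81).

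The genes most like each receptor over the 12 cluster means were found by Pearson's r of log2(mean CPM + 1) among 15015 genes, a description in which all points share libraries and depth. They were Phyhd1 (0.98), Btbd3 (0.98) and Stard13 (0.97) for Pparg, and Sec16a (0.97), Dhx32 (0.97) and Cyp4a14 (0.96) for Ppara. For Ppard they were Sptb (0.91), Msrb1 (0.90) and Shisa4 (0.90), and for Rxra Epm2a (0.95) and Ubtd1 (0.95). Vldlr (0.98), Plekhh3 (0.98) and March8 (0.97) were nearest to Rxrg, and Rb1cc1 (0.93), Cops5 (0.92) and Rpusd2 (0.91) to Rxrb. Among the receptors themselves Pparg was nearest to Rxrg (0.84) and ran against Rxrb (-0.67).

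Whether the receptor genes hold letters of their own motif was counted in 300 bases about the centre of each peak, on both strands. The DR1 AGGTCANAGGTCA with at most 1 mismatch stood in 2 of 98 receptor peaks (2.04%), against 0.892% of all peaks, and AGGTCA itself in 21 (21.4%), against 21.01%. The hexamer is part of DR1, so the counts overlap. The 2 windows are printed with the DR1 or hexamer in capitals (RefSeq, GRCm38.p6, plus strand). The first is the Ppara intron peak that was higher in beige adipocytes, of which 50.3% is masked as repeat, and the second lies on an exon of Rxrb.
Ppara intron peak, chr15:85759348-85759647: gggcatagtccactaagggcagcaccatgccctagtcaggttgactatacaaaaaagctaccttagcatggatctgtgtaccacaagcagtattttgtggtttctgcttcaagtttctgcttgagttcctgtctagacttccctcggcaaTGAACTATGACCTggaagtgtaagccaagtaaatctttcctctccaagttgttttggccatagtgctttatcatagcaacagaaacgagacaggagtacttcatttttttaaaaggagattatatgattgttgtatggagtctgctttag
Rxrb exon peak, chr17:34036702-34037001: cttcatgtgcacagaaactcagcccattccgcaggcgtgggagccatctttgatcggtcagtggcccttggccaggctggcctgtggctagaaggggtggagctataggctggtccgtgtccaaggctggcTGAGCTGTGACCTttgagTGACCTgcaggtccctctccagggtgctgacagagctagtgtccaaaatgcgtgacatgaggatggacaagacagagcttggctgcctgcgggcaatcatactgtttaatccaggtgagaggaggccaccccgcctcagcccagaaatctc
A match of letters is not a measured binding site.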

How the data were processed

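snATAC-seq of iWAT from 21 mice was deposited by the authors as a count matrix of 189598 peaks by 32552 nuclei, with a table of mouse, group and cluster per nucleus. Reads had been aligned to mm10 with Bowtie2 and peaks called with MACS2 per cluster. Entries are 1 or 0, so a count is a nucleus with a read in a peak, not normalized. The authors removed doublets (Scrublet score over 0.2) and made the clusters from the same matrix with Signac. The GEO samples are 4 sequencing lanes, so groups came from the deposited table. The 3 independent batches named in the study are not mapped to mice in the sources used here.

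Counts were summed per mouse and cluster over peaks overlapping GENCODE vM21 gene bodies plus 2000 bases upstream by at least 1 base. The test for genes and for peaks was the quasi-likelihood test of edgeR 4.0.16, with TMM factors and filterByExpr (minimum count 10, total 15), Benjamini-Hochberg adjusted over all features tested. The SE is the fold change divided by the square root of F. Fits were tested on simulated data. DESeq2 1.42.0 and the other alternatives are given in the closing section. Members and lists were chosen with earlier results of these data known. Named peaks are start-site peaks and up to 3 called peaks a gene and direction, and named list genes the 2 smallest p in each direction. Genes of like pattern are the 3 nearest a member, of which one is not reported here. Whether mice of a group were housed or treated apart is not stated.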

Additional observations from a re-analysis of the deposited data

Results flagged for a closer look

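Rxrb in the cluster annotated as VSMC was 0 CPM in the lowest of 10 mice, where the next lowest mouse measured 76.2 CPM. That gap, divided by the range, exceeded Dixon's critical value, and 6 genes were tested in this cluster, the only one with 10 mice or fewer. Chance passes about 1 in 20 such tests. Libraries of this cluster held as few as 10 nuclei and 11095 gene counts, and the part of depth in the 0 was not tested.

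In adipocytes at day 3, each of the 3 cold mice lay above the day0RT mean for Rxrb and each of the 3 CL mice below it. The log2 fold change of CL over cold was -0.26, which did not pass in the test of the difference itself (edgeR adjusted p = 0.38). This was 1 of 18 comparisons of a gene at a day, and the share of all genes with such a pattern was not counted. The start-site peak that Rxrb shares with Slc39a7 held 80.2% of Rxrb counts in beige and 83.2% in white adipocytes. The pattern therefore cannot be assigned to Rxrb alone.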

How the results depend on the processing

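Of 1039 repeats of single values under another setting, 854 kept direction and side of the threshold, 150 lost and 13 gained a call, and 22 changed sign. Of 2 receptor genes called between beige and white adipocytes, 1 was left with start peaks only, 4 passed without group day1CL, and leaving out each mouse gave 2 to 4. Of 43 receptor peaks tested between them, 10 were called. In nuclei of over 2000 counts it was 5 of 35, and with a group term in place of the mouse 4 of 27. With no filter 32 of 98 were called (4 higher, 28 lower, when the median of all peaks was -0.48). A stricter filter chosen after seeing the data gave 2 of 11. Without groups day1C, day1CL, day3C, day7C and day7CL 5, 5, 4, 6 and 6 were called, of 37, 21, 39, 37 and 41 tested. Leaving out each mouse gave 5 to 12. Of 3 Pparg calls against day0RT, 0 were left with start peaks only (white adipocytes 0 of 2), and leaving out each mouse gave 0 to 4 (white 0 to 3). Of 6 peak calls against day0RT, 0 were left in DESeq2, which gave no adjusted p for 1 of them, 2 in nuclei of over 2000 counts, 2 with no filter and 3 with the replicate block, and leaving out each mouse gave 1 to 7. The cause was not tested.

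Deviations of same-numbered mice from their group means had a median r of 0.0013 over 63 pairs (from -0.123 to 0.116), against 0.00041 in other pairs. Best with their own number were 11 of 21 mice, so this does not settle whether the numbers pair mice. With the replicate block 2 Pparg calls were left in adipocytes (day3CL 0.32, edgeR adjusted p = 0.0517) and 2 in white adipocytes. Comparisons of CL with cold and of other clusters gave 0 calls in every setting run. The highest cluster was kept by all 6 receptors as CPM over all peaks, by 4 with start peaks only and by 5 in nuclei of over 2000 counts.

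Sign changes were all of values with no call. Ppard between beige and white was 0.19 with start peaks only and 0.0081 without group day7CL, and leaving out each mouse gave -0.052 to 0.0078. Pparg was -0.0052 with at least 5 nuclei, -0.011 with no filter, -0.028 with start peaks only, -0.0047, -0.016 and -0.034 without groups day1C, day3CL and day7C, and -0.0057 to 0.045 when leaving out each mouse. In white adipocytes of day1C it was -0.0057 with start peaks only, and in day1CL leaving out each mouse gave -0.015 to 0.24 in adipocytes and -0.0042 to 0.30 in white adipocytes. Depth limits peaks with few counts and the day1CL group.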

Other observations

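Peaks outside the gene bodies whose nearest gene start is that of a receptor were also compared between beige and white adipocytes. Of all 34063 peaks tested, 11.2% were called higher and 17.5% lower in beige. Both clusters were formed from these counts, so the calls describe the clusters. Ppara had 21 such peaks, of which 15 were tested, 3 were higher in beige and 4 lower. The 3 higher peaks lie 10284, 14332 and 16943 bases upstream of the start, and the 4 lower ones between 25599 and 47892 bases upstream. The nearest (chr15:85724232-85725166) measured 35.7 CPM in beige and 13.6 in white adipocytes, higher in 18 of 19 mice (log2 fold change 1.13, edgeR adjusted p = 6.85866e-12). The next (chr15:85720176-85721126) measured 61.0 against 27.3 CPM and was higher in 19 of 19 (0.81, edgeR adjusted p = 4.48262e-10).

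Rxra had 21 such peaks, 8 of them tested, and 6 were lower in beige and none higher, from -0.73 to -1.37, where 17.5% of all peaks were called lower. The largest step was at chr2:27637407-27637926, with 7.86 CPM in beige and 15.2 in white adipocytes (edgeR adjusted p = 4.97764e-07). Ppard had 2 such peaks, of which 1 was tested and none called, and the 9 of Pparg and 4 of Rxrg did not reach the filter on low counts. Assignment by nearest start does not show which gene a peak acts on.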
